A study of Arabidopsis thaliana with 24 samples.

Results

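Arabidopsis thaliana explants regenerate shoots in 2 steps: callus forms on a callus-inducing medium (CIM) rich in auxin, and shoots form after transfer to a shoot-inducing medium (SIM) rich in cytokinin. The genes described here had higher mRNA levels on SIM than in fresh hypocotyl explants and on CIM in wild type (WT). These genes were chosen by fold and were not all low before SIM. They number 40 of the 25960 genes in the deposited tables, or 0.154%. They were chosen by values measured in WT: a gene was represented by its isoform of highest mean across all 24 libraries, and the means of the 3 WT libraries a stage, each with 1 added, had to be at least 8 times as high at SIM 4 d and at SIM 6 d as at 0 d and at CIM 4 d. Changes between stages in WT are therefore a description with no test, and such changes were tested in the siz1-2 libraries, whose folds had no part in the choice. Tests between genotypes include the WT libraries that chose the genes. Lower SIM values in siz1-2, and higher siz1-2 values at 0 d and CIM 4 d, are therefore favoured by the choice.

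The groups were siz1-2 and WT, both in the Col-0 accession, with 3 libraries a group at each of 4 stages. The siz1-2 plants carry a mutation in SIZ1, an E3 ligase that joins the small protein SUMO to other proteins. Seedlings of both genotypes grew for 7 days in the dark at 22 °C, and hypocotyl pieces of about 10 mm were sampled within 15 minutes of cutting (0 d), or kept in constant light for 4 days on CIM, which held the auxin 2,4-D at 0.5 µg/ml with kinetin, a cytokinin, at 0.05 µg/ml (CIM 4 d). After CIM, pieces were moved to SIM, which held the auxin IAA at 0.15 µg/ml with 2-IPA, a cytokinin, at 0.5 µg/ml, and were sampled 4 or 6 days later (SIM 4 d, SIM 6 d). In both genotypes, the descriptions of SIM 6 d replicates 2 and 3 swap the durations on CIM and SIM, and titles and sampling times were followed. Whether replicates came from separate cultures is not stated in the labels, and a p-value here reflects the spread among these libraries, which may be technical.

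Values are reads per 1000000 library reads (rpm), recovered as whole reads over totals of 7979350 to 15591781 reads a library. As a check of the labels, reads that only the longest SIZ1 isoform can take numbered -1 to 0 in the 12 siz1-2 libraries and 216 to 493 in the 12 WT libraries, as differences between isoforms. Some libraries stood apart from the other 2 of their group by over 4-fold in many genes: 292 genes in siz1-2 CIM 4 d replicate 3, 118 in WT 0 d replicate 1, 176 in WT CIM 4 d replicate 2 and 82 in WT SIM 6 d replicate 2, against 0 to 33 in each of the others. Of the genes described here, ST4B, AT2G18150 and PME5 were low in the first of these libraries, HB33 and TT4 were high in the second, and AT2G18150 was low in the third. The samples are whole explants, so fewer cells of a type and less RNA per cell cannot be told apart. SIM samples had also been in culture longer than CIM samples, and no CIM sample had the same age. Medium and time in culture therefore cannot be told apart. Seedlings grew in the dark and CIM pieces were kept in light, so light also differed between 0 d and CIM 4 d.

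As background, 2 families run through these genes. Chalcone synthase opens the flavonoid pathway by joining a coumaroyl group, made from phenylalanine, to malonyl units, and chalcone isomerase, flavanone 3-hydroxylase and flavonol synthase then lead to the flavonols, which glycosyltransferases decorate. In Arabidopsis this branch is driven by light and by R2R3 MYB factors. Extensins and proline-rich proteins are rod-like wall proteins rich in hydroxyproline that peroxidases cross-link, and many of them are known from root hairs. The 40 genes fell into 9 roles, drawn up from the annotation after their values were known: 6 flavonoid or phenylpropanoid enzymes, 7 extensins and proline-rich proteins, 3 other wall-related proteins, 3 peroxidases, 3 transcription factors, 2 sugar transporters, 4 oxygenases or oxidases, 4 defence-related proteins including a beta-glucosidase, and 8 transferases and others. By keywords in the annotated product, cell wall genes made up 15.4% of the 39 annotated genes and 2.37% of all 25593 annotated genes, peroxidases and oxidases 10.3% and 3.83%, and cytochromes P450 5.13% and 0.93%.

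The stretches of 250 bases before the annotated start of transcription (RefSeq, TAIR10.1) are shown for the flavonoid genes and PRP3 that hold a listed motif, since ACCTANC and the root hair element are known from flavonoid and root hair genes. In each, letters of the G-box CACGTG, of the MYB motif ACCTANC or of the root hair element are in capitals, either strand counting, so that GTTAGGT is ACCTANC read from the other strand. TT4 lies at chr5:4488226-4488475 (plus strand) and CHIL at chr5:1563036-1563285 (plus strand). F3H lies at chr3:19024942-19025191 (plus strand, over an exon of AT3G51238), 4CL3 at chr1:24171636-24171885 (minus strand) and PRP3 at chr3:23182472-23182721 (plus strand).
TT4: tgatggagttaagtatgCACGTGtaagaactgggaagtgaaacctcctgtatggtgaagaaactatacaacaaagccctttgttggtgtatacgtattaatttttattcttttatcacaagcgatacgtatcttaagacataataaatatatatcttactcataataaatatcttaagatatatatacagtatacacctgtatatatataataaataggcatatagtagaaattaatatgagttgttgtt
CHIL: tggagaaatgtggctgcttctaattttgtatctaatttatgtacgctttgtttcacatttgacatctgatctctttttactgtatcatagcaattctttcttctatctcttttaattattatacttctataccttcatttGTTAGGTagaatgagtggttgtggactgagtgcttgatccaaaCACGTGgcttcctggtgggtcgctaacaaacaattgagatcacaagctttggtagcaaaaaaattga
F3H: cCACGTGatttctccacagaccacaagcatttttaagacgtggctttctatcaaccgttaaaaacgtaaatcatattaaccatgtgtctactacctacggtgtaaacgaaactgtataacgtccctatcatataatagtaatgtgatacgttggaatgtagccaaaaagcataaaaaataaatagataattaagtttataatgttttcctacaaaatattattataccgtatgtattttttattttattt
4CL3: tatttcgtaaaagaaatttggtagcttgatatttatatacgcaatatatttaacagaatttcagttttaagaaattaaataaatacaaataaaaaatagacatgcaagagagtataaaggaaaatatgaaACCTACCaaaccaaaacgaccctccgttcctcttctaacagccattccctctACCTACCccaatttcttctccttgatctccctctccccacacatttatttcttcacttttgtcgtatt
PRP3: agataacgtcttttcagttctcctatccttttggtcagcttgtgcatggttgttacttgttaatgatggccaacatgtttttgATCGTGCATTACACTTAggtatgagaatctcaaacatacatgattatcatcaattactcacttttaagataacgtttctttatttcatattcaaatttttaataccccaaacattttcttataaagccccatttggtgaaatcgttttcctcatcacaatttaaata
The G-box was in 3 of the 6 flavonoid or phenylpropanoid genes (TT4, CHIL and F3H), in 5 of the 39 annotated genes (12.8%) and in 6.79% of the 25592 windows of all genes. The motif ACCTANC was in 2 of these 6 (CHIL and 4CL3, which has 2 copies), in 4 of the 39 (10.3%) and in 5.64% of all. The root hair element was in PRP3 and MLP328 (5.13% of the 39) and in 0.785% of all. Of the other motifs searched, AGATT was in 66.7% of the 39 and 63.2% of all, GGATT in 38.5% and 38.0%, TGTCTC in 15.4% and 11.01%, and TATAAA in 59.0% and 47.1%, with TATAAA in 6 of the 7 extensin and proline-rich genes. No overlap between motifs was removed, and ACCTANC and the root hair element were added once the genes were known. A match is a run of letters and does not show that a factor binds there.

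Upstream sequence was also compared among the 7 extensin and proline-rich genes, because their mRNA levels followed one another from library to library. EXT6 and AT5G06630 are on different chromosomes (chr2:10622146-10622395, plus strand, and chr5:2037856-2038105, minus strand), yet their windows share an unbroken run of 51 bases, in capitals here, starting at base 163 of both.
EXT6: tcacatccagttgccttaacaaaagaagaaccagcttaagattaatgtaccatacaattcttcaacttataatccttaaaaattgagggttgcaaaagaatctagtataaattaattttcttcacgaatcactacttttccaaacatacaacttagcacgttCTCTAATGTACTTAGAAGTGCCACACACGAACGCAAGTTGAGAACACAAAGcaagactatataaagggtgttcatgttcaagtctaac
AT5G06630: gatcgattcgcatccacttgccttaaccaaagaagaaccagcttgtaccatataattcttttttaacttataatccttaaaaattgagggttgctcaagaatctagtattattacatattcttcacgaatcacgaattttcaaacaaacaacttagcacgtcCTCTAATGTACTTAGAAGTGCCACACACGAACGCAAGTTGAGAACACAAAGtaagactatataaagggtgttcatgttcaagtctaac
This run was in 2 of the 25592 windows, these 2. Over the 21 pairs of the 7 windows, the longest shared run had a median of 10 bases, and the second longest, TATCGTGTAGACATGCTTCCACGA in AT3G28550 and AT3G54580, had 24. Its last 15 bases, GACATGCTTCCACGA, were also in the window of HRGP1, and in no other window than these 3. HRGP1 and AT3G54580 are neighbours on chromosome 3, on opposite strands and 2208 bases apart with 0 genes between them. AT5G06630 and EXT10 lie 1742 bases apart on chromosome 5, with 1 gene between them.

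**Figure D1:**
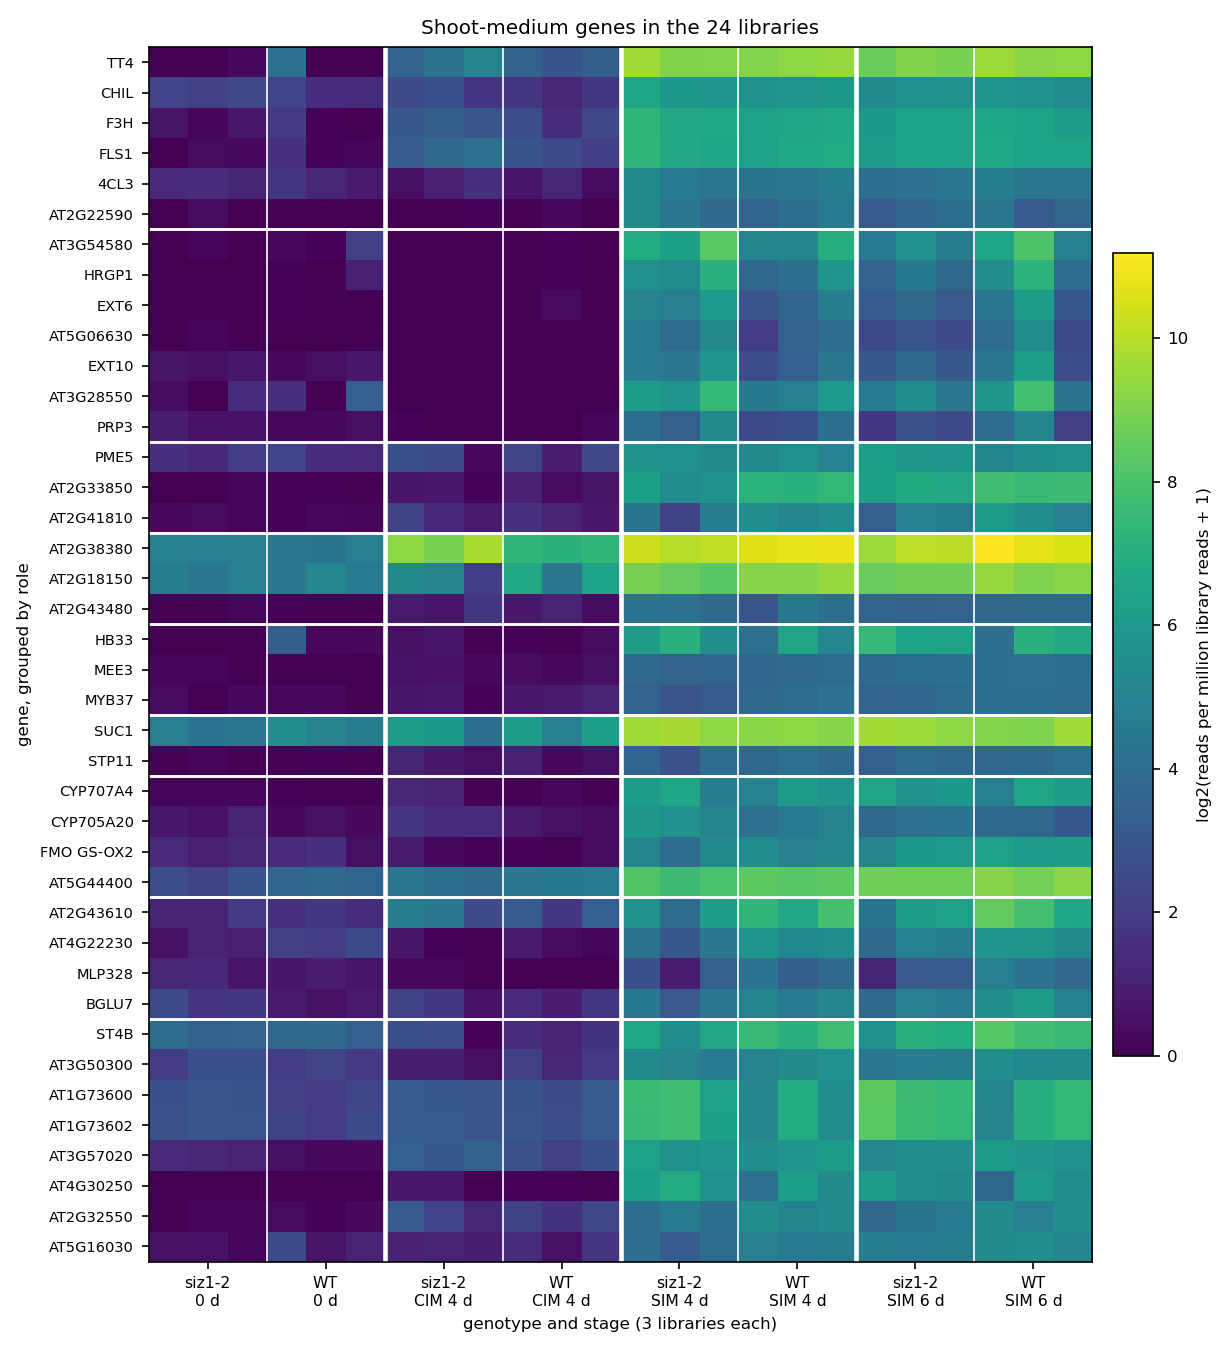
Level of each of the 40 genes (rows, grouped by role) in each of the 24 libraries (columns, siz1-2 left of WT at each stage), as log2 of rpm + 1. Most genes are near 0 at 0 d and CIM 4 d and between about 3 and 11 at SIM 4 d and SIM 6 d in both genotypes; AT2G38380 is already high at CIM 4 d in siz1-2.

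The rise on SIM was seen in siz1-2 as well. All 40 genes passed the filter on low values and were tested, and by limma (Benjamini-Hochberg adjusted p below 0.05 over the 20361 genes tested) 40 were higher in siz1-2 at SIM 4 d than at 0 d (background: 53.6% of genes higher and 23.8% lower), 39 were higher at SIM 4 d than at CIM 4 d (28.8% and 25.1%), 40 at SIM 6 d than at 0 d (53.0% and 24.4%) and 40 at SIM 6 d than at CIM 4 d (29.4% and 25.5%). None was lower in any of the 4. Only AT2G43610, a chitinase gene, missed one of them, at an adjusted p of 0.11 for SIM 4 d against CIM 4 d. On the log2(rpm + 1) scale the median change of the 40 genes was 4.34, 4.05, 4.102 and 3.58 in these 4 comparisons, against 0.47, 0.03, 0.47 and 0.04 over all genes tested. Setting genes with no read at the earlier stage to their lower bound (4 genes at 0 d, 6 at CIM 4 d) gave medians of 4.34, 4.05, 4.22 and 3.97. Against 0 d the direction of calls over all genes moved with the scaling: 10920 genes higher and 4850 lower at SIM 4 d as deposited, 8176 and 6884 after TMM scaling, and 7429 and 7515 after median-of-ratios scaling, with the median of all genes at 0.47, 0.11 and 0.02.

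Measured by the choosing folds themselves, siz1-2 had 52 genes past all 4 (0.2% of 25960) and shared 21 of them with WT, which is 52.5% of the 40 and 40.4% of the 52. The smallest of the 4 folds ranged from 1.45 to 65.3 in siz1-2 (median 9.11) and from 8.07 to 96.5 in WT (median 10.7), and it was smaller in siz1-2 for 31 genes and larger for 9. Since the WT values were picked for being high, a smaller fold elsewhere is favoured by the choice. Of the 19 genes short of 8 in siz1-2, 14 had a smallest fold of at least 4. The other 5 were AT2G38380 (1.45), AT2G43610 (2.53), MLP328 (3.01), PRP3 (3.35) and AT2G32550 (3.52). Just inside the threshold in WT stood CYP705A20 (8.07), PRP3 (8.10), AT1G73602 (8.14), AT3G28550 (8.18) and AT2G43480 (8.34). Just outside it stood PSBTN (smallest fold 4.33 in siz1-2 and 7.73 in WT), EXT12 (4.57 and 7.51), AT3G62960 (14.0 and 7.46), EXPA8 (5.09 and 7.43) and AT3G21680 (2.65 and 7.43). For the 31 genes past the folds in siz1-2 but not in WT, the smallest fold in WT had a median of 5.07 and was at least 4 in 21.

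**Figure D2:**
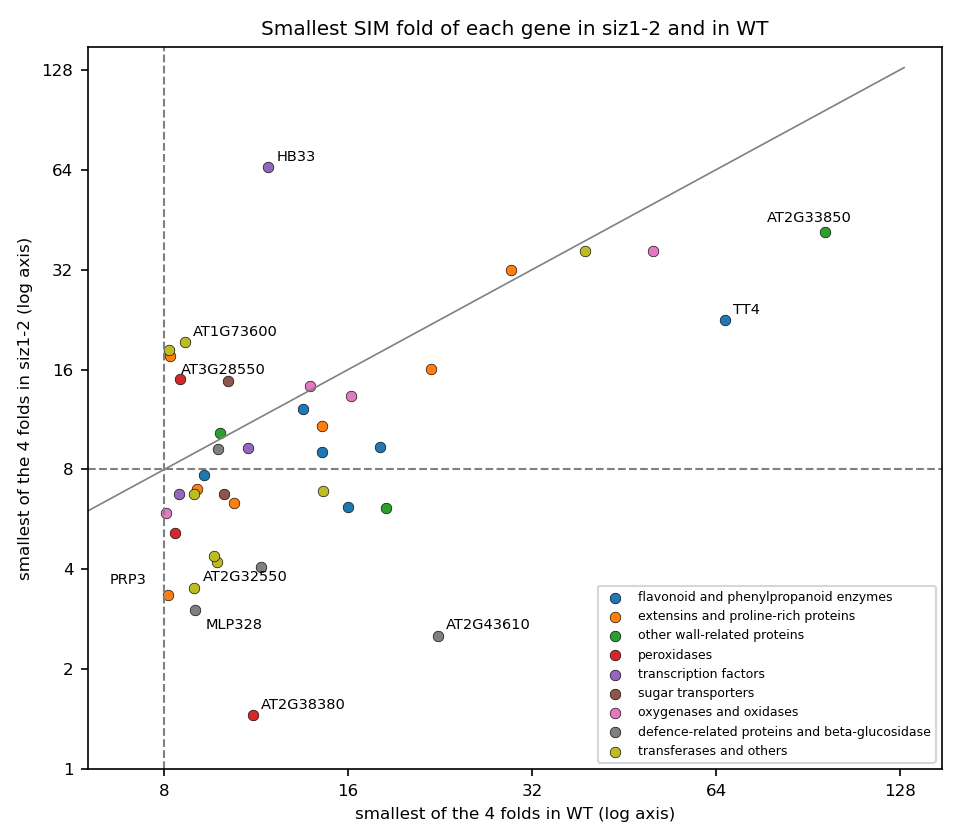
Smallest of the 4 SIM folds of each gene (mean rpm + 1 at SIM 4 d or SIM 6 d over 0 d or CIM 4 d) in siz1-2 (vertical, log axis) against WT (horizontal, log axis), coloured by role; dashed lines mark 8 and the grey line marks equal folds. 21 genes lie above the horizontal line, HB33 is highest in siz1-2 at 65.3, and AT2G38380 is lowest at 1.45.

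Of the 40 genes, 5.0% passed the test between the SIM stages in siz1-2, a share above the background that rests on single genes. Between SIM 6 d and SIM 4 d, 1 gene was higher (background 0.285%) and 1 lower (0.344%): AT5G44400, a berberine-bridge-type oxidase gene, rose, and CYP705A20, a cytochrome P450 gene, fell. The 40 log2 differences split evenly, 20 above 0 and 20 below. All 6 flavonoid genes and all 7 extensin and proline-rich genes were below 0, with medians of -0.56 and -1.87, and none of these 13 passed the test. On CIM, before any SIM, 13 of the 40 genes were already higher than at 0 d in siz1-2 (background 49.6%) and 3 were lower (27.3%). The 13 included 3 of the 6 flavonoid genes (TT4, F3H and FLS1) and 0 of the 7 extensin and proline-rich genes. Leaving out 1 library ended some of these 16 calls. AT2G41810 did not pass without 0 d replicate 1, 2 or 3 or CIM 4 d replicate 1 or 2 (adjusted p from 0.068 to 0.22), and MEE3 did not without 0 d replicate 3 or CIM 4 d replicate 1 or 2 (0.069 to 0.078). CYP705A20 did not pass without 0 d replicate 2 (0.062) or CIM 4 d replicate 1 (0.051), and STP11 did not without CIM 4 d replicate 1 (0.10).

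Per kilobase of transcript, 5 genes had the highest mean levels at SIM 4 d in siz1-2 among the 39 with a known length. AT2G38380, a class III peroxidase gene, had 674 rpm per kb in siz1-2 and 1045 in WT. TT4 had 367 and 363 rpm per kb, SUC1 had 341 and 268, AT2G18150 had 278 and 439, and AT5G44400 had 124 and 161, in siz1-2 and in WT. At the other end, STP11 had 5.31 rpm per kb in siz1-2 and 7.08 in WT.

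Flavonoid and phenylpropanoid genes rose together on SIM in siz1-2. TT4 encodes chalcone synthase, the entry enzyme of the pathway. It had 0, 0 and 0.222 rpm in siz1-2 and 17.1, 0 and 0 rpm in WT at 0 d, and 10.6, 18.7 and 30.8 rpm in siz1-2 and 9.73, 6.59 and 8.77 rpm in WT at CIM 4 d. On SIM it had 787, 534 and 553 rpm in siz1-2 and 555, 619 and 682 rpm in WT at 4 d, and 402, 533 and 486 rpm in siz1-2 and 740.4, 607 and 629.8 rpm in WT at 6 d. Every SIM library was thus above every CIM library by more than 10 times, and the genotypes overlapped at SIM 4 d but not at SIM 6 d, where the siz1-2 libraries were lower. In siz1-2 the log2 change over CIM 4 d was 4.99 ± 0.70 at SIM 4 d (SE, adjusted p = 9.3e-06) and 4.61 ± 0.70 at SIM 6 d (adjusted p = 2.1e-05). The genotype difference at SIM 6 d was -0.48 ± 0.70 and did not pass (adjusted p = 0.85). Against 0 d in siz1-2, where TT4 had 2 reads in all, the ratio at SIM 4 d was 8364 with a 95% counting interval of 2315 to 69066, and such intervals cover counting error only.

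CHIL, F3H and FLS1 rose with TT4. CHIL encodes a chalcone isomerase-like protein that assists chalcone synthase, F3H makes dihydroflavonols, and FLS1 turns those into flavonols. FLS1 had 7.87, 12.3 and 17.1 rpm in siz1-2 and 6.52, 4.98 and 3.26 rpm in WT at CIM 4 d, 163, 108 and 97.6 and 84.7, 101 and 113 rpm at SIM 4 d, and 66.8, 88.0 and 89.9 and 101, 90.3 and 89.2 rpm at SIM 6 d, siz1-2 before WT each time. Its CIM libraries in siz1-2 were all above those in WT, its SIM 4 d libraries overlapped between genotypes, and its smallest fold was 6.16 in siz1-2 and 15.99 in WT. F3H had 157, 107 and 101 rpm in siz1-2 and 84.7, 91.3 and 104 rpm in WT at SIM 4 d, against 7.22, 8.79 and 6.70 and 5.38, 1.69 and 4.39 rpm at CIM 4 d. The F3H gene shares 87.2% of its 50-base stretches with the overlapping gene AT3G51238, so its reads may be counted for both. CHIL averaged 71.1 ± 21.9 rpm in siz1-2 and 57.0 ± 3.91 rpm in WT at SIM 4 d, and 4.31 ± 1.798 and 2.05 ± 0.678 rpm at CIM 4 d (SD, n = 3 each). Log2 changes of SIM 4 d over CIM 4 d in siz1-2 were 3.79 ± 0.26 for CHIL, 3.82 ± 0.37 for F3H and 3.23 ± 0.32 for FLS1 (adjusted p = 8.8e-10, 1.3e-07 and 1.4e-07).

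4CL3 encodes the 4-coumarate:CoA ligase that feeds flavonoid synthesis, and AT2G22590 encodes a UDP-glycosyltransferase. AT2G22590 was nearly silent before SIM, with 2 reads at 0 d and 1 at CIM 4 d over the 3 siz1-2 libraries and 0 and 2 reads over the WT libraries. On SIM it had 37.6, 20.8 and 13.3 rpm in siz1-2 and 11.3, 16.6 and 23.0 rpm in WT at 4 d, and 8.19, 11.5 and 16.6 and 20.1, 7.98 and 11.8 rpm at 6 d. The ratio over CIM 4 d in siz1-2 was 750.0 at SIM 4 d, with a 95% counting interval of 134 to 29653. 4CL3 had 37.7, 23.8 and 20.3 rpm in siz1-2 and 19.2, 19.9 and 25.7 rpm in WT at SIM 4 d, against 0.370, 0.986 and 1.84 and 0.567, 1.27 and 0.251 rpm at CIM 4 d. It rose by 3.79 ± 0.27 in siz1-2 on the log2 scale (adjusted p = 1.2e-09). Over the 6 genes, the summed level at SIM 6 d was 594 to 788 rpm in siz1-2 (median 755). In WT it was 863 to 1040.1 rpm (median 864), without overlap. TT4 made up most of this sum, and 4CL3, AT2G22590 and FLS1, each taken singly, overlapped between genotypes at that stage. Of the 6 genes, 0 passed the genotype test at either SIM stage. In 3 of the 4 SIM groups 1 library was the highest for all 6 genes: siz1-2 SIM 4 d replicate 1, WT SIM 4 d replicate 3 and WT SIM 6 d replicate 1. At SIM 6 d in siz1-2 all 6 were lowest in replicate 1, and TT4 was highest in replicate 2 and the other 5 in replicate 3.

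**Figure D3:**
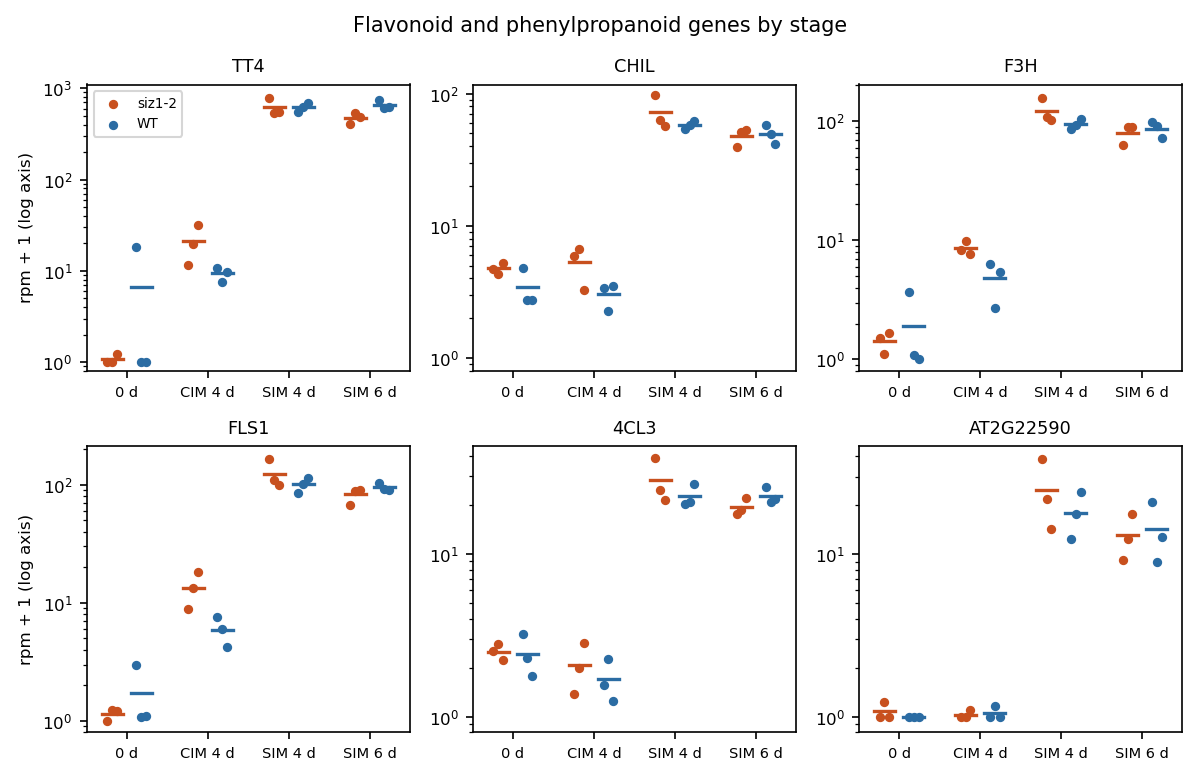
Level of the 6 flavonoid and phenylpropanoid genes as rpm + 1 (log axis) at the 4 stages. Points are libraries, siz1-2 left of WT, and short lines mark the means of 3. TT4 is over 500 in each siz1-2 library at SIM 4 d and below 2 in each at 0 d. In all 6 panels the mean levels of the genotypes on SIM are closer to each other than to those at CIM 4 d. TT4 does not overlap between genotypes at SIM 6 d, where siz1-2 is lower.

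Other flavonoid genes, from lists drawn up with earlier results known, show the rest of the pathway. Chalcone isomerase itself (CHI, TT5) was already on before SIM. It averaged 12.1 ± 1.21, 37.5 ± 16.7, 97.1 ± 31.5 and 63.0 ± 10.4 rpm over the 4 stages in siz1-2 (SD, n = 3), and rose over CIM 4 d by 1.39 ± 0.24 on the log2 scale at SIM 4 d (adjusted p = 6.6e-05). F3'H, which adds a hydroxyl group to flavonoids, averaged 17.7 ± 7.68 rpm in siz1-2 and 5.13 ± 2.19 rpm in WT at SIM 4 d, and rose in siz1-2 by 3.35 ± 0.27 (adjusted p = 5.7e-09). The upstream enzymes PAL1, PAL2 and C4H rose by 1.7997 ± 0.23, 1.90 ± 0.22 and 1.396 ± 0.10 in the same comparison. DFR, LDOX and BAN, which lead from dihydroflavonols to anthocyanins and tannins, stayed below 1 rpm in all 24 libraries. MYB12, a regulator of flavonol genes, averaged 16.3 ± 8.91 rpm at SIM 4 d and 8.0004 ± 1.85 rpm at CIM 4 d in siz1-2 and rose by 0.83 ± 0.33 (adjusted p = 0.039). Its relative MYB11 fell: it had no read in siz1-2 at SIM 4 d, against 9.35 ± 4.87 rpm at CIM 4 d (adjusted p = 6.8e-10). The whole list of glucosinolate, terpene and phenylpropanoid genes held TT4, F3H and FLS1. Of its 29 tested genes at SIM 4 d over CIM 4 d in siz1-2, 21 rose and 2 fell (background 28.8% and 25.1%). The median change was 1.7997, against 0.03 over all genes tested.

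Extensin and proline-rich genes had almost no reads on CIM in siz1-2. At CIM 4 d, 6 of the 7 had no read in any siz1-2 library, where 3 reads over the group would be 0.0913 rpm, and PRP3 had 1 read. At 0 d, AT3G28550 had 18 reads over the 3 siz1-2 libraries, PRP3 had 17 and EXT10 had 14, while the other 4 genes had 0 or 1. AT3G28550 was the highest of the 7 at 0 d, with 0.305, 0 and 1.66 rpm in siz1-2 and 1.90, 0 and 9.30 rpm in WT. AT3G54580, an extensin gene, had 119, 77.9 and 323 rpm in siz1-2 and 32.2, 34.1 and 124 rpm in WT at SIM 4 d. At SIM 6 d it had 22.4, 49.9 and 24.6 rpm in siz1-2 and 98.8, 265 and 27.4 rpm in WT. In both genotypes at SIM 4 d, replicate 3 stood above the other 2 libraries, and in both at SIM 6 d replicate 2 did. Against the floor of 3 reads at CIM 4 d, AT3G54580 was at least 2010.4-fold higher at SIM 4 d and at least 341-fold higher at SIM 6 d in siz1-2. It rose by 7.18 ± 0.69 on the log2(rpm + 1) scale at SIM 4 d (adjusted p = 1.2e-07), a fitted value that depends on the added 1.

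HRGP1, a hydroxyproline-rich glycoprotein gene next to AT3G54580, had 48.6, 41.5 and 139.8 rpm in siz1-2 and 12.6, 16.5 and 56.8 rpm in WT at SIM 4 d, and 10.6, 22.3 and 12.4 and 44.5, 149.7 and 14.6 rpm at SIM 6 d. EXT6, an extensin gene, had 31.1, 26.5 and 62.9 rpm in siz1-2 and 6.62, 11.6 and 25.96 rpm in WT at SIM 4 d, and 8.42, 13.2 and 7.74 and 19.7, 70.7 and 7.23 rpm at SIM 6 d. The highest library of each SIM group was the same in both genes as in AT3G54580. In siz1-2 over CIM 4 d, HRGP1 was at least 888-fold higher at SIM 4 d and 160.3-fold at SIM 6 d, and EXT6 at least 457-fold and 104-fold. AT3G28550 was at least 1172-fold and 298-fold higher, EXT10 at least 390.0-fold and 101-fold, and AT5G06630 at least 295-fold and 59.9-fold. Their mean levels in siz1-2 at SIM 4 d were 102 ± 64.6 rpm for AT3G28550, 33.9 ± 21.0 rpm for EXT10 and 26.05 ± 13.2 rpm for AT5G06630. Shared sequence was small except in EXT10, where 23.9% of 50-base stretches also occur in another gene, among them the overlapping AT5G06645, and was at most 4.48%, in EXT6, among the others.

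PRP3 encodes a proline-rich protein known from root hairs. It had 15.6, 9.56 and 38.3 rpm in siz1-2 and 5.002, 5.73 and 15.97 rpm in WT at SIM 4 d, and 2.496, 5.82 and 4.90 and 14.0, 32.2 and 3.34 rpm at SIM 6 d. At 0 d it had 0.914, 0.478 and 0.444 rpm in siz1-2 and 0.165, 0.174 and 0.328 rpm in WT. Of the 7 genes it had the smallest fold in siz1-2, 3.35, set by SIM 6 d against 0 d, where it rose by 1.702 ± 0.55 on the log2 scale (adjusted p = 0.0084).

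The genotype differences of these 7 genes had opposite signs at the 2 SIM stages. All 7 had higher mean log2 levels in siz1-2 than in WT at SIM 4 d (median difference 1.48) and lower ones at SIM 6 d (median -1.29), and 0 of the 7 passed the test at either stage. The change from one stage to the other, compared between genotypes in a contrast added after these values were seen, had a median of -2.61 over the 7 genes with adjusted p from 0.80 to 1. It uses the values that prompted it and the WT libraries that chose the genes, so it describes those values and is no separate support for them. By limma 0 of the 40 genes passed in this contrast (background 0.00982% of genes higher and 0.0% lower), 8 had an unadjusted p below 0.05, and edgeR and DESeq2 on the recovered reads also called 0. The spread within a group was wide: the highest SIM 6 d library in WT was 7.66 to 11.5 times the lowest (rpm + 1) over the 7 genes, against 1.398 to 2.18 times in siz1-2. WT SIM 6 d replicate 2 was the highest for all 7 and replicate 3 the lowest. Without WT SIM 6 d replicate 3, 5 of the 7 (EXT6, HRGP1, PRP3, AT5G06630 and EXT10) were lower in siz1-2 at SIM 6 d and in the added contrast. There EXT6 had a log2 difference of -3.35 and an adjusted p of 0.036. Without the 4 libraries that stood apart, WT SIM 6 d replicate 2 among them, no gene of the 7 gained a call at SIM 6 d or in the added contrast. That fit called EXT6 higher in siz1-2 at SIM 4 d (1.48, adjusted p = 0.047). These calls thus depend on which library is left out. Summed over the 7 genes, SIM 6 d replicates 1, 2 and 3 had 79.1, 153 and 82.7 rpm in siz1-2 and 273, 857 and 81.2 rpm in WT, so that the groups overlapped.

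**Figure D4:**
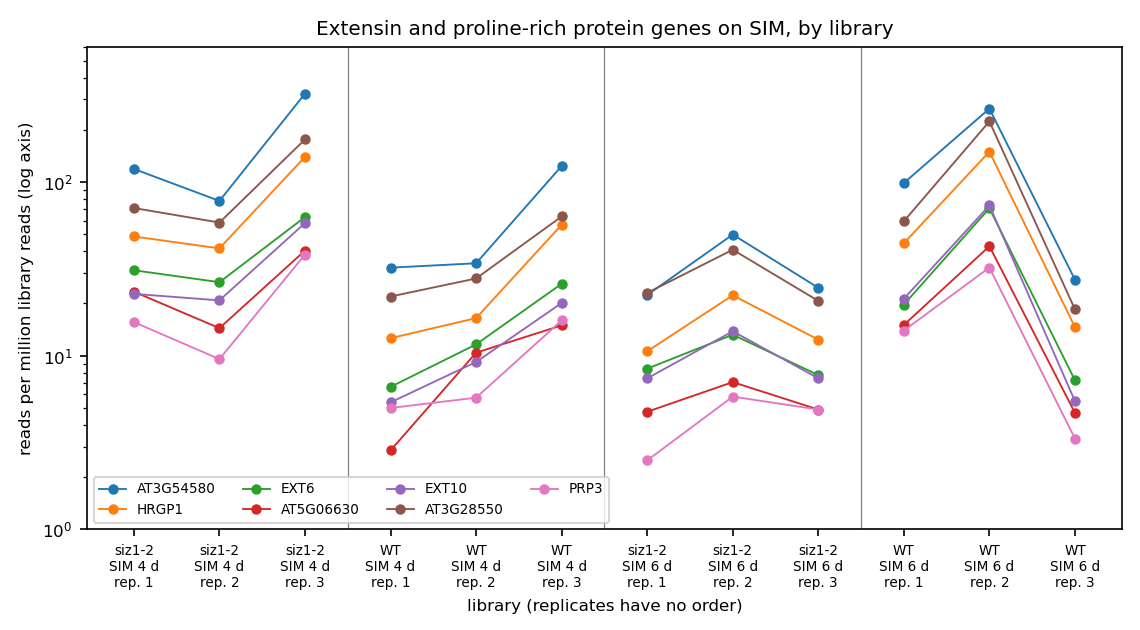
Level of the 7 extensin and proline-rich genes in rpm (log axis) in each SIM library, siz1-2 left of WT at each stage; lines join the points of 1 gene and imply no order of replicates. All 7 genes are highest in replicate 3 at SIM 4 d and in replicate 2 at SIM 6 d in both genotypes, and AT3G54580 reaches 265 rpm in WT SIM 6 d replicate 2.

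Other root hair genes on the lists had low levels. LRX1, a leucine-rich repeat extensin of root hair walls, averaged 9.74 ± 5.85 rpm in siz1-2 and 3.27 ± 1.71 rpm in WT at SIM 4 d, and rose in siz1-2 over CIM 4 d, where it had no read (adjusted p = 1.1e-05). EXPA7 and EXPA18, expansins of root hairs, averaged 5.25 ± 4.48 and 4.88 ± 2.98 rpm in siz1-2 at SIM 4 d, with no read at CIM 4 d, and rose (adjusted p = 0.00016 and 2.1e-05). COBL9 and RSL4 rose as well, by 1.605 ± 0.25 and 1.25 ± 0.34 on the log2 scale, while RHD6 averaged 3.99 ± 1.99 rpm at SIM 4 d and 6.38 ± 2.96 rpm at CIM 4 d and did not pass the test. RGF1, RGF3 and RSL1 were below 1 rpm in every library. The whole list of root identity and root hair genes had 33 tested genes at SIM 4 d over CIM 4 d in siz1-2. On this list 11 rose (background 28.8%) and 13 fell (25.1%). The summed level of its 36 genes other than PRP3 was 279 to 356 rpm at SIM 4 d in siz1-2 and 232 to 329 rpm in WT, against 634 to 799 rpm and 676 to 839 rpm at CIM 4 d. Whether root cells take part in the extensin values was not tested.

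Other wall-related genes included AT2G33850, which differed between genotypes at both SIM stages. AT2G33850 encodes a small protein annotated as E6-like. It had 81.3, 40.9 and 52.3 rpm in siz1-2 and 149.6, 139 and 171 rpm in WT at SIM 4 d, and 81.7, 111 and 108 and 215, 185 and 206 rpm at SIM 6 d. The siz1-2 libraries were below all WT libraries at both stages. The log2 difference was -1.43 ± 0.21 at SIM 4 d (adjusted p = 0.00062) and -1.01 ± 0.21 at SIM 6 d (adjusted p = 0.0089), and the SIM 6 d difference no longer passed without WT SIM 6 d replicate 1 (adjusted p = 0.052) or siz1-2 SIM 6 d replicate 1 (0.083). Before SIM the gene had 1 read at 0 d and 14 reads at CIM 4 d over the siz1-2 libraries, and 2 and 18 reads over the WT libraries. It rose over CIM 4 d in siz1-2 by 5.34 ± 0.21 and 6.16 ± 0.21 (adjusted p = 4.0e-13 and 6.6e-14), so it was high on SIM in both genotypes, at a lower level in siz1-2.

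PME5 encodes a pectin methylesterase, which trims methyl groups from wall pectin. It had 51.7, 48.1 and 38.0 rpm in siz1-2 and 38.6, 47.5 and 30.6 rpm in WT at SIM 4 d, and 73.0, 59.7 and 56.5 and 32.6, 47.0 and 53.3 rpm at SIM 6 d, where siz1-2 was higher without overlap but did not pass (difference 0.52 ± 0.50, adjusted p = 0.75). AT2G41810 encodes a wall protein of the DUF642 family. It had 19.7, 3.66 and 25.7 rpm in siz1-2 and 46.4, 33.1 and 42.7 rpm in WT at SIM 4 d, and 9.52, 28.2 and 25.0 and 68.1, 46.8 and 28.3 rpm at SIM 6 d. Every siz1-2 library was below every WT library at each SIM stage, with siz1-2 SIM 4 d replicate 2 and SIM 6 d replicate 1 lowest, and the differences of -1.59 ± 0.51 and -1.20 ± 0.51 did not pass (adjusted p = 0.14 and 0.30).

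AT2G38380, a class III peroxidase gene, was higher in siz1-2 on callus medium, a direction that the choice by WT values favours. It had 626, 496 and 881 rpm in siz1-2 and 163, 146 and 158 rpm in WT at CIM 4 d, a log2 difference of 2.06 ± 0.18 (adjusted p = 8.6e-07). On SIM the order turned: it had 1277, 1002 and 1102 rpm in siz1-2 and 1646, 1732 and 1863 rpm in WT at 4 d, and 760.4, 1088 and 1059.7 and 2340.4, 1717 and 1501 rpm at 6 d. The groups did not overlap at any of the 3 stages. At SIM 6 d the difference was -0.93 ± 0.18 (adjusted p = 0.0072), which did not pass without WT replicate 1 (0.060) or siz1-2 replicate 1 (0.073) of that stage, and at SIM 4 d it was -0.64 ± 0.18 (adjusted p = 0.086). In siz1-2 the gene rose at CIM 4 d over 0 d by 4.50 ± 0.18, and on SIM over CIM 4 d by 0.79 ± 0.18 at 4 d and 0.56 ± 0.18 at 6 d (adjusted p = 0.0013 and 0.015). This last call was lost without siz1-2 CIM 4 d replicate 2 (0.37, adjusted p = 0.11), SIM 6 d replicate 2 (0.068) or SIM 6 d replicate 3 (0.061). At 0 d it had 28.9, 26.6 and 27.9 rpm in siz1-2 and 20.7, 19.6 and 26.9 rpm in WT.

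AT2G18150, another class III peroxidase gene, had 37.1, 31.1 and 3.21 rpm in siz1-2 and 99.9, 20.9 and 90.0 rpm in WT at CIM 4 d, where 1 library of each genotype was well below the others. On SIM it had 474, 389 and 308 rpm in siz1-2 and 577, 575 and 696 rpm in WT at 4 d, and 383, 428 and 455 and 702, 516 and 596 rpm at 6 d. All siz1-2 SIM libraries were below all WT ones, and the differences of -0.67 ± 0.61 and -0.51 ± 0.61 did not pass. AT2G43480, which overlaps AT2G43490, was much lower, with 18.4, 17.41 and 13.1 rpm in siz1-2 and 6.93, 22.1 and 16.3 rpm in WT at SIM 4 d. In siz1-2, AT2G18150 rose over CIM 4 d by 4.48 ± 0.61 and AT2G43480 by 3.01 ± 0.31 at SIM 4 d (adjusted p = 6.8e-06 and 1.5e-07).

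The 3 transcription factors behaved differently from one another. HB33, a zinc finger homeodomain gene, had no read at 0 d in siz1-2 and 8.94, 0.174 and 0.219 rpm in WT, and 0.370, 0.538 and 0 and 0.0945, 0 and 0.251 rpm at CIM 4 d. On SIM it had 70.1, 137 and 45.0 rpm in siz1-2 and 17.62, 90.6 and 34.8 rpm in WT at 4 d, and 175, 89.7 and 87.4 and 16.8, 135 and 106 rpm at 6 d. It was uneven between replicates in both genotypes, and the genotypes overlapped. Over the floor of 3 reads at 0 d it was at least 748-fold higher at SIM 4 d and 1055-fold at SIM 6 d in siz1-2, and over CIM 4 d it rose by 5.90 ± 0.77 and 6.45 ± 0.77 (adjusted p = 4.6e-06 and 1.4e-06).

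MEE3, a small MYB-like gene, varied little between libraries. It had 12.6, 10.8 and 11.7 rpm in siz1-2 and 11.4, 13.6 and 14.0 rpm in WT at SIM 4 d, and 13.1, 15.5 and 16.2 and 15.9, 17.42 and 15.7 rpm at SIM 6 d, after levels below 1 rpm in each earlier library. Its genotype difference was -0.14 ± 0.13 at SIM 4 d and -0.13 ± 0.13 at SIM 6 d (adjusted p = 0.71 and 0.77), and it rose over CIM 4 d by 3.22 ± 0.13 in siz1-2. MYB37, also named RAX1, is known for starting axillary meristems. It had 10.9, 7.02 and 7.95 rpm in siz1-2 and 12.5, 14.4 and 16.97 rpm in WT at SIM 4 d, and 10.8, 11.02 and 14.0 and 16.5, 16.5 and 14.1 rpm at SIM 6 d. The groups did not overlap at either stage. The difference at SIM 4 d was -0.71 ± 0.18 (adjusted p = 0.047), and this call was lost without WT SIM 4 d replicate 1 (0.077), replicate 2 (0.12) or replicate 3 (0.13) and without siz1-2 SIM 4 d replicate 2 (0.25) or replicate 3 (0.13). MYB37 still rose in siz1-2 over CIM 4 d by 2.76 ± 0.18 and 3.19 ± 0.18 (adjusted p = 5.0e-10 and 5.0e-11).

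Some known shoot regulators on the lists that are not among the 40 also rose on SIM in siz1-2, and others did not. The genes named are examples, and only the boundary list is counted as a whole here. WUS, the stem cell organiser, had no read at 0 d or CIM 4 d in either genotype and averaged 14.5 ± 6.94 rpm in siz1-2 and 5.84 ± 6.46 rpm in WT at SIM 4 d (adjusted p = 1.5e-05 over CIM 4 d in siz1-2). CUC1, a boundary gene, rose by 3.19 ± 0.59 on the log2 scale at SIM 4 d, and CLV3, CUC2, CUC3, ESR1 and ESR2 also passed at both SIM stages. STM passed only at SIM 6 d, by 2.18 ± 0.73 (adjusted p = 0.017). Of the relatives of RAX1, RAX3 rose and RAX2 did not pass, and LAS fell by 0.69 on the log2 scale at SIM 4 d. The list of organ boundary and axillary branching genes, RAX1 included, had 14 tested genes. Over CIM 4 d in siz1-2, 10 rose and 1 fell at each SIM stage. The background was 28.8% higher and 25.1% lower at SIM 4 d, and 29.4% and 25.5% at SIM 6 d.

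Of the 2 sugar transporters, SUC1 moves sucrose with protons. It had 26.6, 17.9 and 19.8 rpm in siz1-2 and 45.4, 31.2 and 25.2 rpm in WT at 0 d, and 67.4, 61.7 and 16.2 and 69.1, 27.4 and 75.3 rpm at CIM 4 d. On SIM it had 782, 842 and 634 rpm in siz1-2 and 583, 624 and 567 rpm in WT at 4 d, and 809.9, 746 and 629.8 and 561, 522 and 805 rpm at 6 d. All siz1-2 libraries were above all WT ones at SIM 4 d and the groups overlapped at SIM 6 d, and neither difference passed (adjusted p = 0.79 and 0.89). Its rise over CIM 4 d in siz1-2 was 4.16 ± 0.41 at SIM 4 d (adjusted p = 1.8e-07). STP11, a monosaccharide transporter, had 11.4, 5.83 and 14.9 rpm in siz1-2 and 12.5, 17.04 and 13.3 rpm in WT at SIM 4 d and rose in siz1-2 by 2.6995 ± 0.26 (adjusted p = 7.0e-08). Among other sucrose transporters, SUC2 and SUC5 rose over CIM 4 d in siz1-2, by 3.03 ± 0.24 and 3.05 ± 0.27, while SUC2 had already averaged 132 ± 19.5 rpm at 0 d. STP13 fell at SIM 6 d by 0.59 on the log2 scale, and the phloem exporters SWEET11 and SWEET12, at 1845 ± 357 and 380.03 ± 40.7 rpm at 0 d in siz1-2, averaged under 1 rpm at both SIM stages. The transport list as a whole had 9 of 33 tested genes higher at SIM 4 d than at CIM 4 d (background 28.8%) and 8 lower (25.1%).

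Among the oxygenases and oxidases, CYP707A4 encodes an abscisic acid 8'-hydroxylase, which inactivates that hormone. It had 3 reads at 0 d and 26 at CIM 4 d over the siz1-2 libraries and 1 and 2 reads over the WT libraries. On SIM it had 72.2, 95.8 and 25.1 rpm in siz1-2 and 30.5, 72.4 and 53.9 rpm in WT at 4 d, and 92.8, 51.6 and 61.1 and 27.0, 98.0 and 71.9 rpm at 6 d, with the genotypes overlapping. Against 0 d in siz1-2 the ratio was 562 at SIM 4 d, with a 95% counting interval of 192 to 2728. Its relatives CYP707A1 and CYP707A3 averaged 9.08 ± 2.705 and 2.78 ± 0.712 rpm in siz1-2 at SIM 4 d, against 9.54 ± 4.60 and 4.39 ± 1.604 rpm at CIM 4 d, and did not pass. CYP707A2 was below 1 rpm in every library. The list of gibberellin, brassinosteroid and abscisic acid genes had 25 tested genes. At SIM 4 d over CIM 4 d in siz1-2, 5 rose (background 28.8%) and 9 fell (25.1%).

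CYP705A20, which overlaps AT3G20120, had 59.1, 48.3 and 32.1 rpm in siz1-2 and 16.9, 23.1 and 30.8 rpm in WT at SIM 4 d, and 12.2, 17.3 and 18.1 and 13.02, 12.2 and 7.54 rpm at SIM 6 d. All siz1-2 libraries were above all WT ones at SIM 4 d. The gene fell in siz1-2 by 1.47 on the log2 scale at SIM 6 d against SIM 4 d (SE 0.25, adjusted p = 0.0061), a call lost without siz1-2 SIM 6 d replicate 1 (0.069). It was higher in siz1-2 at CIM 4 d (0.96 ± 0.25, adjusted p = 0.044) and at SIM 4 d (0.95 ± 0.25, adjusted p = 0.047). The SIM 4 d call was lost without WT SIM 4 d replicate 1 (0.30) or replicate 2 (0.12) and without siz1-2 SIM 4 d replicate 1 (0.24) or replicate 2 (0.17).

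AT5G44400 encodes a berberine-bridge-type oxidase. It had 288, 203 and 261 rpm in siz1-2 and 330.5, 315 and 326 rpm in WT at SIM 4 d, and 420.1, 423 and 422 and 572, 459.5 and 599 rpm at SIM 6 d. In siz1-2 it rose between those stages by 0.76 ± 0.16 (adjusted p = 0.029), which did not pass without siz1-2 SIM 4 d replicate 2 (0.13) or replicate 3 (0.061) or without any one of the SIM 6 d libraries (0.13, 0.084 and 0.094). At 0 d it was lower in siz1-2, with 5.18, 3.47 and 6.44 rpm in siz1-2 and 11.3, 12.4 and 11.2 rpm in WT (difference -1.10 ± 0.16, adjusted p = 0.00010). FMO GS-OX2 encodes a monooxygenase that oxidises the sulfur of glucosinolate side chains. It had 34.3, 14.2 and 39.3 rpm in siz1-2 and 43.0, 28.7 and 34.1 rpm in WT at SIM 4 d, and 31.1, 61.7 and 64.5 and 83.1, 65.9 and 69.3 rpm at SIM 6 d, and rose in siz1-2 by 4.41 ± 0.34 over CIM 4 d at SIM 4 d (adjusted p = 3.5e-09).

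Of the 4 defence-related genes, 1 passed the test between genotypes on SIM. All 8 gene and stage differences were below 0, a direction that the choice by high WT values favours. AT2G43610 encodes a chitinase. It had 26.02, 21.4 and 5.14 rpm in siz1-2 and 7.93, 2.45 and 9.27 rpm in WT at CIM 4 d, 50.9, 14.0 and 72.5 and 162, 108 and 235 rpm at SIM 4 d, and 19.2, 72.0 and 82.9 and 365, 229.8 and 98.9 rpm at SIM 6 d, siz1-2 before WT each time. On SIM all siz1-2 libraries were below all WT ones, with siz1-2 SIM 4 d replicate 2 and SIM 6 d replicate 1 lowest. Its rise over CIM 4 d in siz1-2 was 1.32 ± 0.68 at SIM 4 d (adjusted p = 0.11) and 1.68 ± 0.68 at SIM 6 d (adjusted p = 0.042). The second was lost without siz1-2 CIM 4 d replicate 3 (log2 change 1.02, adjusted p = 0.24), SIM 6 d replicate 2 (0.14) or SIM 6 d replicate 3 (0.16), and the first passed without siz1-2 SIM 4 d replicate 2 (1.99, adjusted p = 0.024). Genotype differences of -2.07 ± 0.68 and -2.03 ± 0.68 did not pass (adjusted p = 0.14 and 0.14).

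AT4G22230 encodes a defensin-like peptide. It had 18.9, 7.17 and 21.3 rpm in siz1-2 and 56.4, 36.1 and 42.1 rpm in WT at SIM 4 d, and 13.4, 29.0 and 26.1 and 55.5, 59.7 and 38.3 rpm at SIM 6 d, without overlap at either stage. The difference was -1.55 ± 0.34 at SIM 4 d (adjusted p = 0.016), lost without WT replicate 1 (0.10) or siz1-2 replicate 2 (0.11) of that stage, and -1.17 ± 0.34 at SIM 6 d (adjusted p = 0.066). At 0 d it was lower in siz1-2 as well, by 1.36 on the log2 scale (adjusted p = 0.012). MLP328 encodes a major latex protein-like protein. It had 5.66, 0.822 and 9.49 rpm in siz1-2 and 18.4, 8.96 and 13.8 rpm in WT at SIM 4 d, and 1.25, 7.75 and 8.06 and 27.5, 18.3 and 11.99 rpm at SIM 6 d. One siz1-2 library at each SIM stage was near 1 rpm. Over 0 d it rose by 1.29 ± 0.52 at SIM 4 d (adjusted p = 0.031), lost without siz1-2 0 d replicate 3 (0.11) or SIM 4 d replicate 1 (0.11) or replicate 3 (change 0.76, adjusted p = 0.20) and larger without SIM 4 d replicate 2 (2.02), and by 1.45 ± 0.52 at SIM 6 d (adjusted p = 0.017), lost without 0 d replicate 3 (0.065) or SIM 6 d replicate 2 (0.084) or replicate 3 (0.088). BGLU7, a beta-glucosidase gene, had 21.9, 7.62 and 20.01 rpm in siz1-2 and 32.6, 22.9 and 33.3 rpm in WT at SIM 4 d and rose over CIM 4 d in siz1-2 by 2.49 ± 0.43 (adjusted p = 8.4e-05). All 4 genes had lower mean log2 levels in siz1-2 at both SIM stages, with medians of -1.53 and -1.47.

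The remaining 8 genes held transferases and proteins of less clear role. ST4B encodes a sulfotransferase. It had 5.56, 5.38 and 0.0918 rpm in siz1-2 and 1.7003, 1.18 and 2.13 rpm in WT at CIM 4 d, 102, 42.8 and 108 and 192, 143 and 212 rpm at SIM 4 d, and 51.9, 138 and 118 and 303, 215 and 193 rpm at SIM 6 d, siz1-2 before WT. In siz1-2 it fell by 1.78 on the log2 scale at CIM 4 d against 0 d (SE 0.52, adjusted p = 0.0046), a size that rests on CIM 4 d replicate 3: without that library it fell by 0.92 (adjusted p = 0.036). It rose over CIM 4 d by 4.47 ± 0.52 at SIM 4 d. AT3G50300, an acyltransferase gene, also fell at CIM 4 d in siz1-2, by 1.72 (adjusted p = 2.6e-06), and rose by 4.21 ± 0.25 at SIM 4 d. At CIM 4 d it was lower in siz1-2, with 0.926, 0.897 and 0.367 rpm in siz1-2 and 3.40, 1.27 and 2.76 rpm in WT (adjusted p = 0.044). The third gene that fell at CIM 4 d was FMO GS-OX2, by 0.79 (adjusted p = 0.040), which did not pass without 0 d replicate 1 or 3 or CIM 4 d replicate 2 or 3 (0.084 to 0.12). Without the 4 libraries that stood apart, ST4B did not pass either (0.053).

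AT1G73600 encodes a methyltransferase, and AT1G73602, which the reference does not annotate, had 0.96 to 1.16 times its values in all 24 libraries, so the pair counts as 1 signal. AT1G73600 had 196, 213 and 83.1 rpm in siz1-2 and 32.7, 119 and 41.9 rpm in WT at SIM 4 d, and 333, 202 and 177 and 31.9, 127.8 and 173 rpm at SIM 6 d. Its genotype difference at SIM 6 d, the highest of the 40, was 1.34 ± 0.51 (adjusted p = 0.21) and did not pass. HB33, CYP707A4 and AT4G30250 shared its order of SIM 4 d libraries, with replicate 2 highest in both genotypes. AT4G30250, an ATPase gene of the AAA type, had no read at 0 d in either genotype, and had 73.4, 115 and 47.8 rpm in siz1-2 and 16.9, 77.4 and 37.3 rpm in WT at SIM 4 d, at least 702-fold above the floor in siz1-2.

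AT3G57020, annotated as a calcium-dependent phosphotriesterase family gene, was higher in siz1-2 before SIM, a direction that the choice by WT values favours. It had 1.52, 1.32 and 1.11 rpm in siz1-2 and 0.331, 0.174 and 0.219 rpm in WT at 0 d, and 9.17, 7.53 and 10.2 and 5.95, 3.38 and 5.64 rpm at CIM 4 d. The groups did not overlap at either stage, and the differences were 0.90 ± 0.20 (adjusted p = 0.0050) and 0.75 ± 0.20 (adjusted p = 0.048), the second 0.46 without the 4 libraries that stood apart (adjusted p = 0.37). At SIM 4 d the groups overlapped, with means of 64.6 ± 17.7 rpm in siz1-2 and 56.7 ± 9.99 rpm in WT, and at SIM 6 d the means were 42.6 ± 6.37 rpm in siz1-2 and 57.4 ± 9.59 rpm in WT without overlap (SD, n = 3 each; adjusted p = 0.35). AT2G32550, a gene of the RCD1-like cell differentiation family, had 14.9, 22.8 and 15.5 rpm in siz1-2 and 47.0, 32.1 and 38.6 rpm in WT at SIM 4 d, without overlap (difference -1.11 ± 0.35, adjusted p = 0.12). AT5G16030, which overlaps AT5G16040, averaged 12.8 ± 3.56 and 24.9 ± 0.988 rpm in siz1-2 at the SIM stages, against 26.1 ± 2.07 and 39.3 ± 4.90 rpm in WT. Both rose over CIM 4 d in siz1-2, by 2.002 ± 0.35 and 2.72 ± 0.34 at SIM 4 d.

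Counted over the 40 genes, genotype differences were few. At 0 d, 1 gene was higher in siz1-2 (AT3G57020; background 4.37%) and 2 were lower (AT5G44400 and AT4G22230; 6.6%). At CIM 4 d, 3 were higher (AT2G38380, AT3G57020 and CYP705A20; background 1.3%) and 1 was lower (AT3G50300; 0.904%). CYP705A20 did not pass without any one of the 6 libraries (adjusted p from 0.053 to 0.17), AT3G57020 did not without any but WT CIM 4 d replicate 1 (0.057 to 0.18), and AT3G50300 did not without any but WT CIM 4 d replicate 2 (0.065 to 0.21). At SIM 4 d, 1 was higher (CYP705A20; background 1.1%) and 3 were lower (AT2G33850, MYB37 and AT4G22230; 1.1%). At SIM 6 d, 0 were higher (background 1.42%) and 2 were lower (AT2G33850 and AT2G38380; 1.59%). By sign alone, 18 of the 40 differences were below 0 at SIM 4 d (median 0.20) and 32 of 40 at SIM 6 d (median -0.49). Medians over all genes tested were 0.04 and 0.05, and the share of all genes below 0 is not given here. Differences below 0 on SIM are favoured by the choice of genes with high WT values. The 32 include all 7 extensin and proline-rich genes, whose levels followed one another from library to library.

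**Figure D5:**
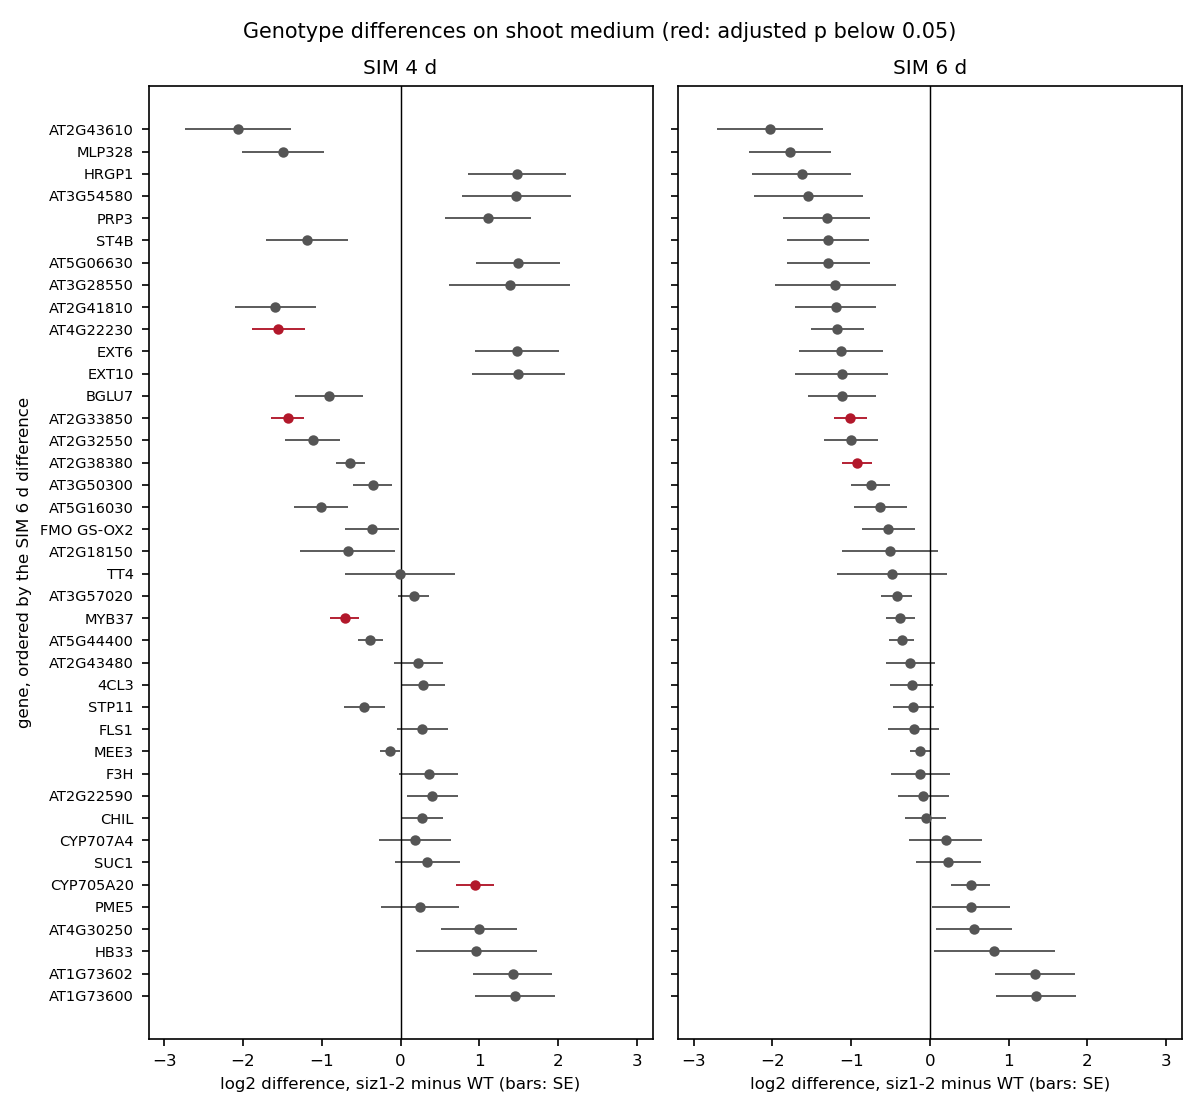
Log2 difference in level between siz1-2 and WT (siz1-2 minus WT, on log2 of rpm + 1; bars are SE from the model over 24 libraries) at SIM 4 d (left) and SIM 6 d (right) for the 40 genes, ordered by the SIM 6 d value; red marks adjusted p below 0.05. At SIM 6 d 32 genes lie left of 0, and the extensin and proline-rich genes lie right of 0 at SIM 4 d and left of it at SIM 6 d.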

How the data were processed

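RNA was prepared with an RNeasy kit and DNase and made into libraries with the KAPA stranded mRNA kit, per the labels' protocols. Bowtie 1.2.1, bcl2fastq and the genome build TAIR10 are named, per the submitters' processing notes. The sources used here give neither the counting rule nor any use of strand. The deposited tables hold a normalized signal per transcript isoform, made by the authors, and 100% of values came out as whole reads over 1 library total times 1000000 (tolerance 0.001 of a read). Columns sum to 1533760 to 1708918 rpm, so 1 read can count for several isoforms.

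For each of 25960 genes the isoform with the highest mean was used, and log2(rpm + 1) of the 20361 genes with at least 1 rpm in at least 3 libraries was fitted with limma 3.58.1 in R 4.3.3 (trend and robust settings, 8 group means over 24 libraries, 16 residual degrees of freedom, Benjamini-Hochberg adjustment over all genes tested). The script was tested on simulated data. edgeR 4.0.16 and DESeq2 1.42.0 on the recovered reads were alternatives: for SIM 4 d against CIM 4 d in siz1-2, edgeR called 5281 genes higher and 5575 lower, and limma called 5874 and 5102. Coordinates and promoter windows come from RefSeq (TAIR10.1), matched by locus tag for 25593 genes and 39 of the 40. Counting intervals are exact and two-sided at 95%.

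The genes and the lists were chosen with earlier results of these data known. The 22 gene lists held 660 symbols, of which 624 were matched; 5 lists hold genes described here and 17 hold none. Genes named were those highest in WT on SIM, on a list, with the largest and smallest siz1-2 changes, with a called difference, short of the folds in siz1-2, next to the threshold, or annotated as transcription factors. Other members are given by role.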

Additional observations from a re-analysis of the deposited data

How the results depend on the processing

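The 4 counts of genes higher on SIM in siz1-2 stayed within 1.5 times of 40, 39, 40 and 40 under every alternative run. No count can exceed 40, so this range speaks to losses only. For the 190 gene results called in the main fit, 3088 of 3219 values under alternatives kept direction and side of the threshold. Another 131 lost their call and 0 reversed. At least 1 alternative ended the call in 21 of the 190. Most of the 190 are rises on SIM, and calls gained under an alternative are not in these totals. The number of genes chosen moved from 40 to 187 with a threshold of 4, to 10 with 16 and to 120 with 0.1 added in place of 1, and was 33 to 65 without 1 WT replicate. Of the 40, 35 passed a threshold of 4 in siz1-2 in place of 21. Counts of a few genes moved with many settings, and the cause was not tested. For SIM 6 d against SIM 4 d, the 1 gene higher and 1 lower were 0 and 0 with 0.1 added or only the compared groups fitted, 3 and 3 without the 4 libraries that stood apart, and 0 to 2 and 0 to 1 without 1 replicate. For CIM 4 d against 0 d, the 3 lower genes were 7 with 0.1 added, 5 with 0.5 added or median-of-ratios scaling, 1 with only the compared groups, 6 by edgeR and 9 by DESeq2. Between genotypes at 0 d, the 1 higher gene was 3 with 0.1 added or without the 4 libraries, 2 with 0.5 added, TMM or median-of-ratios scaling, edgeR or DESeq2, and 4 with only the compared groups, and the 2 lower genes were 4 by edgeR and 5 by DESeq2. At CIM 4 d, the 3 higher genes were 1 with TMM scaling or only the compared groups, 5 by DESeq2 and 1 to 2 without 1 replicate, and the 1 lower gene was 0 with no filter, either scaling, only the compared groups or edgeR, 2 without the 4 libraries, and 0 to 2 without 1 replicate. At SIM 4 d, the 1 higher gene was 0 with 0.1 or 0.5 added, no filter, either scaling, only the compared groups, edgeR or DESeq2, 2 without the 4 libraries and 0 to 1 without 1 replicate, and the 3 lower genes were 0 with 0.1 added, 7 without the 4 libraries and 1 to 3 without 1 replicate. At SIM 6 d, the 2 lower genes were 1 with 0.1 added and 0 to 8 without 1 replicate. In the added contrast the 0 lower genes were 0 to 5 without 1 replicate.

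Replicate numbers were not treated as pairs, and whether libraries of the same number share a batch was not tested. Over all genes tested, libraries of the same number did not track each other more often than libraries of other numbers. The 7 extensin and proline-rich genes, in contrast, were highest in the same-numbered library of both genotypes at each SIM stage. Deviations from group means correlated by -0.73 to 0.61 between libraries of the same number and stage, over 0.1 in 3 of 12 pairs, and in 10 of 24 pairs of other numbers. With the replicate block, the genes higher in siz1-2 were 1 at CIM 4 d and 0 at SIM 4 d, and those lower at CIM 4 d were 0; no other count moved by over 1.5 times.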
